A study of Mus musculus with 1 sample.

Results

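The histone deacetylase (HDAC) family was examined in sorted c-kit+ bone marrow (BM) cells of Ctrl mice, which are wild type on the C57BL/6 strain. The members are 10 genes chosen by name, *Hdac1* to *Hdac8*, *Hdac10* and *Hdac11*, among the 54532 genes listed in the file. They comprise 4 genes of class I, 5 of class II and 1 of class IV. The labels describe the sorted cells as Lin-, c-kit+ and Sca1-, and do not give the age, sex or number of the mice. The study set these cells against those of *Gadd45g*-deficient mice with a myeloproliferative neoplasm (MPN). That library was not analysed here, so the values are levels in 1 Ctrl library, with no replicates and no test between groups. A level is given in FPKM, which divides a gene's fragments by gene length and by library depth, and the 95% intervals come from recovered fragments and cover counting error only.

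Histone deacetylases remove acetyl groups from lysines of histone tails and of other proteins, and acetylated histone tails mark open chromatin. Classes I, II and IV are zinc-dependent enzymes, whereas the sirtuins of class III use NAD+. Class I enzymes are mostly nuclear and act as the catalytic subunits of repressor complexes. Class IIa enzymes shuttle between nucleus and cytoplasm and bind MEF2 transcription factors, and class IIb enzymes have largely cytoplasmic roles. In blood, class I enzymes are brought to their target genes by lineage factors such as GFI1 and IKAROS. The study asked in human MPN cell lines and patient cells whether histone deacetylation contributes to a low level of *GADD45g*. It reported an inverse correlation of *GADD45g* with *HDAC1* and *HDAC2* expression in CD34+ cells of patients. It also used romidepsin, which it lists as an inhibitor of HDAC1 and HDAC2. The study reported that romidepsin raised *GADD45g* mRNA in the cell lines and in patient cells. It also reported higher histone acetylation at the *GADD45g* promoter in the treated cell lines.

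Class IIa can be told from the other classes in the coding sequence of the active site. In class I, IIb and IV enzymes a tyrosine helps to turn over the substrate, and in vertebrate class IIa enzymes a histidine stands in its place. The stretches below are shown because they carry this difference. Each is 30 bases of the coding strand of a GENCODE M21 transcript (GRCm38), written 5′ to 3′, with the codon of that tyrosine or histidine in capitals. The stretch of *Hdac3* is not shown, and its codon is TAC.
Hdac1 (class I, codon 303): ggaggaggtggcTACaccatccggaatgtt
Hdac2 (class I, codon 304): ggtggaggaggcTACacaatccggaatgtt
Hdac8 (class I, codon 306): ggaggaggaggcTATaaccttgccaacacg
Hdac6 (class IIb, codon 781): ctagagggtggaTACaatttggcatctatc
Hdac10 (class IIb, codon 305): ttggagggtggcTACcacttggagtcccta
Hdac11 (class IV, codon 304): acctcgggtgggTACcagaagcgcacagcc
Hdac4 (class IIa, codon 968): cttgagggaggcCATgacctgacagccatc
Hdac5 (class IIa, codon 1017): ctggagggaggcCATgacttgaccgccatc
Hdac7 (class IIa, codon 845): ttagagggtggaCATgacctcacggccatc
The codon was TAC or TAT, for tyrosine, in the 7 genes of classes I, IIb and IV, and CAT, for histidine, in the 3 genes of class IIa. HDAC6 has a pair of catalytic domains, and the stretch shown is from the second.

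In the encoded proteins as a whole, pairs within a class or subclass were more alike than other pairs. Over their aligned residues, the 10 pairs of proteins within a class or subclass shared from 40.9% to 86.7% of residues, with a median of 51.9%. The other 35 pairs shared from 23.2% to 39.8%, with a median of 28.0%. Unlike the codon, the whole proteins set class IIb nearer to class IIa than to classes I and IV. Class IIb proteins shared from 32.0% to 39.8% with class IIa proteins, and from 23.2% to 27.9% with those of classes I and IV. HDAC1 and HDAC2 were the closest pair, with 417 of 481 aligned residues in common. HDAC8 was the class I protein least like the others, sharing at most 42.2% with any of them.

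**Figure D1:**
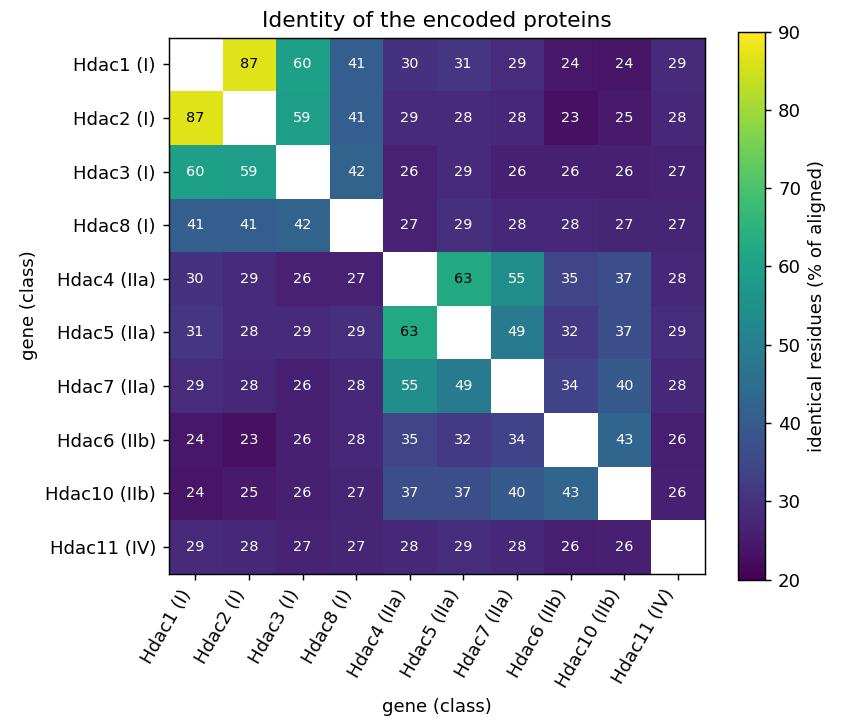
Identity of the encoded proteins for each pair of the 10 genes, as the percentage of aligned residues that are identical, with the class of each gene in parentheses. The blocks of class I and class IIa stand out, and *Hdac1* with *Hdac2*, at 86.7%, is the brightest cell.

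Class I held the most abundant HDAC mRNAs. *Hdac1* (ENSMUSG00000028800, chr4:129516104-129542713, reverse strand) had a level of 41.6 FPKM, and the 2260 fragments behind it gave a 95% interval (Wilson) of 39.9 to 43.3 FPKM. This level was the highest of the family. *Hdac2* (ENSMUSG00000019777, chr10:36974544-37001889, forward strand), whose product shares most complexes with that of *Hdac1*, had 18.8 FPKM from 1327 fragments (interval, 17.8 to 19.8). *Hdac1* was therefore 2.21 times *Hdac2*, with a counting interval of 2.07 to 2.37. *Hdac3* (ENSMUSG00000024454, chr18:37935844-37955016, reverse strand), the enzyme of the NCoR complexes, had 13.5 FPKM. It has no interval because its value was not a whole multiple of 1 fragment. *Hdac8* (ENSMUSG00000067567, chrX:102284639-102505359, reverse strand), known for deacetylating the cohesin subunit SMC3, had 2.46 FPKM from 188 fragments (interval, 2.13 to 2.84). Levels within class I thus ranged 16.9-fold, from *Hdac8* to *Hdac1*.

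Class II fell into a group of 3 genes near 10 FPKM and a lower pair. Of class IIa, *Hdac5* (ENSMUSG00000008855, chr11:102194432-102230166, reverse strand) had 13.1 FPKM from 1813 fragments (interval, 12.5 to 13.7). *Hdac7* (ENSMUSG00000022475, chr15:97792664-97844502, reverse strand), known from thymocytes and B cell progenitors, had 11.8 FPKM (interval, 11.2 to 12.5). *Hdac4* (ENSMUSG00000026313, chr1:91928779-92195699, reverse strand), known from muscle and cartilage, had 2.98 FPKM from 744 fragments (interval, 2.77 to 3.20). *Hdac5* and *Hdac7* were 4.39 and 3.97 times *Hdac4*. Of class IIb, *Hdac10* (ENSMUSG00000062906, chr15:89123307-89128700, reverse strand), whose product deacetylates polyamines, had 10.7 FPKM from 571 fragments (interval, 9.86 to 11.6). *Hdac6* (ENSMUSG00000031161, chrX:7930120-7947889, reverse strand), the tubulin deacetylase, had 3.29 FPKM from 302 fragments (interval, 2.94 to 3.68). Each subclass therefore held a gene that was more than 3 times below its relatives. A further class IIa gene that is not among the 10, *Hdac9*, had 0.855 FPKM (interval, 0.744 to 0.983), below every member. It was looked up after the other values had been seen.

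Class IV has a single gene. *Hdac11* (ENSMUSG00000034245, chr6:91156665-91174692, forward strand), whose product removes long fatty acyl groups from lysines, had 1.53 FPKM from 93 fragments (interval, 1.25 to 1.88). It was the lowest of the 10, and *Hdac1* was 27.2 times higher, with a counting interval of 22.1 to 33.8. The 7 sirtuin genes of class III, which are not members, had a median of 5.12 FPKM. *Sirt7*, a nucleolar deacetylase, led them at 27.9 FPKM, above every HDAC gene except *Hdac1*. Its place below *Hdac1* depended on how length was counted, since it had 2264 fragments against 2260 for *Hdac1*. Per kilobase of the longest coding transcript, *Sirt7* came to 83.1 FPKM and *Hdac1* to 70.3 FPKM. *Sirt2* had 13.7 FPKM, *Sirt1* 7.37 FPKM, and *Sirt5*, a mitochondrial desuccinylase, 0.468 FPKM.

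**Figure D2:**
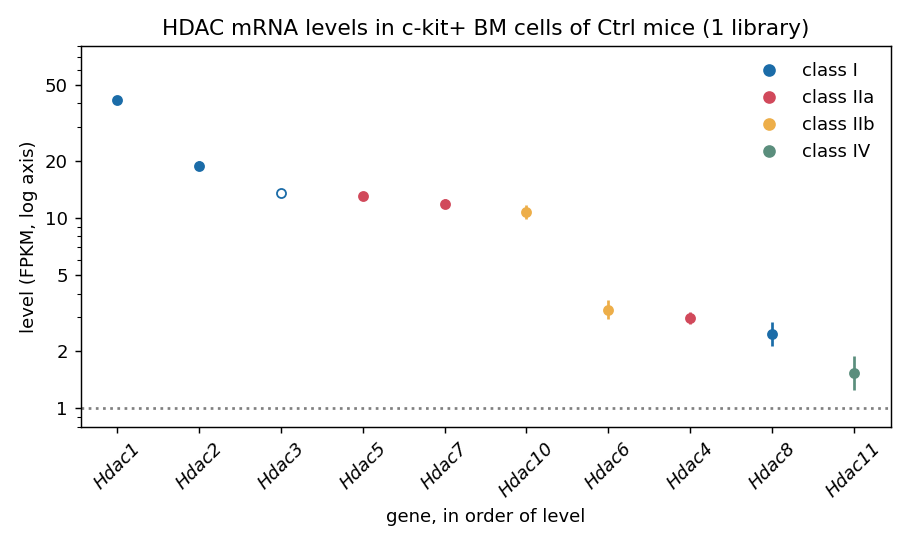
Level of each HDAC gene in FPKM on a log axis, in order of level and coloured by class, for the 1 Ctrl library. Points are the deposited values, vertical lines are 95% Wilson intervals of counting error, and the open point is *Hdac3*, which has no interval. The dotted line marks 1 FPKM, and levels run from 41.6 FPKM (*Hdac1*) to 1.53 FPKM (*Hdac11*).

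All 10 genes reached 1 FPKM, a level reached by 22.2% of all listed genes and by 46.8% of the 21995 protein-coding genes. A level of 10 FPKM was reached by 6 of the 10 and by 21.2% of protein-coding genes. These 6 were *Hdac1*, *Hdac2*, *Hdac3*, *Hdac5*, *Hdac7* and *Hdac10*, so that each of classes I, IIa and IIb had at least 1. *Hdac1* was above 94.4% of protein-coding genes and *Hdac2* above 87.0%. At the other end, *Hdac8* was above 60.2% and *Hdac11* above 56.2%. The median of the family was 11.3 FPKM, beside 8.66 FPKM over the 10290 protein-coding genes at 1 FPKM or more.

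**Figure D3:**
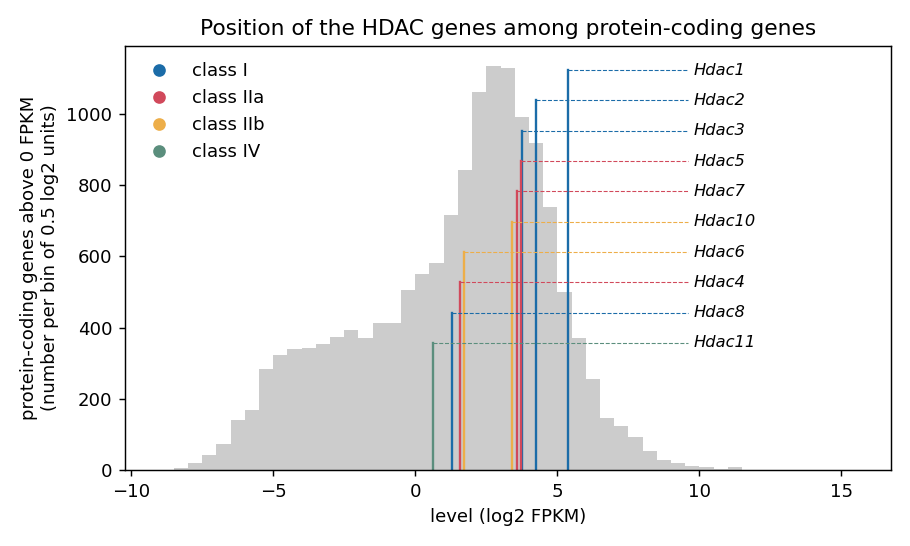
Number of protein-coding genes above 0 FPKM in each bin of 0.5 log2 units (grey), with the level of each HDAC gene in log2 FPKM as a vertical line coloured by class. The family runs from *Hdac11*, above 56.2% of protein-coding genes, to *Hdac1*, above 94.4%, percentages that also count the genes at 0, which are not drawn. The genes drawn have a median of 4.22 FPKM, and *Hdac6*, *Hdac4*, *Hdac8* and *Hdac11* lie below it.

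To compare the classes, the levels were summarised by median, sum and range. The class I median was 16.2 FPKM over 4 genes, the class II median 10.7 FPKM over 5 genes, and class IV had 1.53 FPKM. The ratio of the class I to the class II median was 1.51, although the ranges overlapped, since *Hdac8* of class I was below all 5 class II members. Within class II, the median was 11.8 FPKM for the 3 class IIa genes and 7.0 FPKM for the 2 class IIb genes. Class I made up 63.7% of the summed HDAC level, class II 35.0% and class IV 1.28%. *Hdac1* alone was 34.7% of the sum, and with it left out class I made up 44.5%. The median ratio rested on single genes, going to 2.31 with *Hdac5* left out of class II or with *Hdac9* added to it.

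Several neighbours in the order of levels lay close together. Intervals of the ratio could be had for 7 of the 9 pairs of neighbours, without adjustment for their number. *Hdac6* and *Hdac4* differed by less than counting error, with a ratio of 1.10 (exact binomial interval, 0.962 to 1.26). *Hdac7* and *Hdac10*, with a ratio of 1.11 (interval, 1.0 to 1.22), and *Hdac5* and *Hdac7*, with a ratio of 1.10 (interval, 1.03 to 1.19), differed by little more. *Hdac3* and *Hdac5* were 1.03-fold apart, with no interval. The largest step was that from *Hdac10* to *Hdac6*, 3.25-fold (interval, 2.83 to 3.75). Whether any of these steps exceeds the spread between mice cannot be read from 1 library.

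The order also depended on how length was counted. FPKM here divides by all bases covered by any exon of a gene, which came to between 1.38 times (*Hdac2*) and 2.5 times (*Hdac8*) the longest coding transcript. *Hdac4* has the longest exonic length, 15813 nucleotides, and ranked eighth in FPKM but sixth in recovered fragments. *Hdac5*, with 8780 nucleotides, ranked second in fragments. Per kilobase of the longest coding transcript, *Hdac3* came to 27.0 FPKM and *Hdac2* to 25.9 FPKM, which turned their order, and *Hdac8*, at 6.15 FPKM, came to lie above *Hdac4* at 5.82 FPKM and *Hdac6* at 4.62 FPKM. *Hdac1* was first and *Hdac11* last under all 3 measures. Exons of opposite-strand genes cover 22.4% of the exonic length of *Hdac4* (*Gm26720*) and up to 15.4% of that of *Hdac11* (*Gm44002*). Both of these overlapping genes are listed at 0, and whether the counting used strand is not given in the sources used here.

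**Figure D4:**
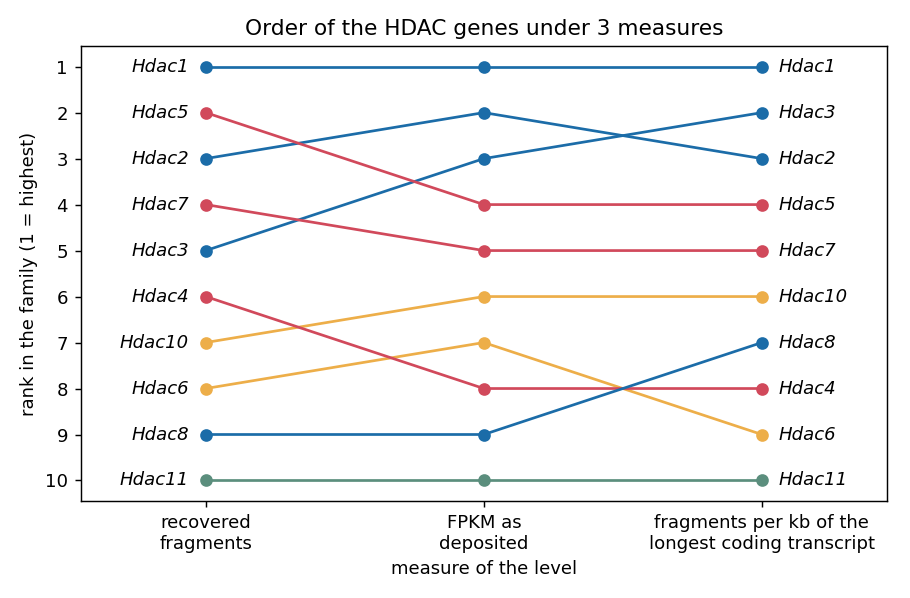
Rank of each HDAC gene in the family, coloured by class, by recovered fragments, by FPKM as deposited, and by fragments per kilobase of the longest coding transcript. *Hdac1* stays first and *Hdac11* last, while *Hdac4* and *Hdac5* rank lower, and *Hdac3* higher, once length is divided out.

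*Hdac1* was also the only member for which similar sequences outside the 10 genes were found at other loci among the annotated transcripts. A search with the coding transcripts of the 10 genes found 11 such annotated genes for *Hdac1*, at 80% identity or more over at least 300 nucleotides. It found none for the other 9 members. Matches between members, and to genes that overlap the member, were left out. Of the 11, *Gm21834* and *CT025622.2* overlap each other. The closest, the processed pseudogene *Gm10093* (chr17:78491582-78493025), shares 1435 of 1444 aligned nucleotides with the *Hdac1* mRNA. Of all 100-nucleotide windows of the *Hdac1* transcript, 46.7% occur unchanged in *Gm10093*. *Gm10093* had 7.24 FPKM from 165 fragments, and the other 9 of these annotated genes in the file are listed at 0. These fragments amount to 7.30% of those on *Hdac1*, and adding them to *Hdac1* would raise its ratio to *Hdac2* from 2.21 to 2.37. Which of the loci they came from, and how many fragments were left uncounted because they matched both, was not tested, so the level of *Hdac1* is uncertain to that extent.

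The class I enzymes, apart from HDAC8, work within complexes. All 37 genes chosen for the SIN3, NuRD, CoREST, NCoR and MiDAC complexes reached 1 FPKM, and 26 of them reached 10 FPKM. Over all protein-coding genes, the shares at these levels were 46.8% and 21.2%. The 11 NuRD genes had the highest median, 36.0 FPKM. Among them *Mta2* had 71.3 FPKM (interval, 69.3 to 73.4), *Mbd2*, which binds methylated DNA, 70.2 FPKM, and the remodelling ATPase *Chd4* 48.1 FPKM, above its relative *Chd3* at 11.4 FPKM. *Gatad2b* was lowest at 6.43 FPKM. The histone-binding subunits shared by NuRD and SIN3 were also abundant, *Rbbp7* at 48.7 FPKM and *Rbbp4* at 36.0 FPKM. *Mta2*, *Mbd2*, *Chd4*, *Rbbp7* and *Mbd3*, the last at 44.6 FPKM (interval, 42.3 to 47.0), were each above *Hdac1* in FPKM as deposited. Per kilobase of the longest coding transcript, *Mta2* (93.1 FPKM) and *Mbd2* (115 FPKM) stayed above *Hdac1* (70.3 FPKM). By that measure *Rbbp7* (63.2 FPKM), *Chd4* (57.5 FPKM) and *Mbd3* (53.3 FPKM) lay below *Hdac1*.

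The 13 SIN3 genes had a median of 14.9 FPKM. Apart from the shared subunits, *Sap30* was highest at 37.1 FPKM, the scaffold genes *Sin3a* and *Sin3b* had 16.5 and 11.8 FPKM, and *Arid4b* was lowest at 2.30 FPKM. CoREST genes were lower, with a median of 7.0 FPKM over 7 genes. *Rcor1*, its main scaffold, had 20.8 FPKM against 1.27 FPKM for *Rcor3* and 1.15 FPKM for *Rcor2*, and the demethylase *Kdm1a* had 10.9 FPKM. Of the 5 genes of the *Hdac3* complexes, *Gps2* had 56.2 FPKM, *Ncor1* 28.8 FPKM (interval, 28.1 to 29.6) and *Tbl1xr1*, the lowest, 8.10 FPKM. The MiDAC complex was represented by *Dnttip1* at 15.8 FPKM, *Mideas* (*Elmsan1* in the annotation) at 13.8 FPKM and *Trerf1* at 1.70 FPKM.

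Repressors that bring these complexes to genes in blood cells varied more widely. Of 11 such genes, 10 reached 1 FPKM, beside 46.8% of all protein-coding genes, and the median was 8.38 FPKM. *Ikzf1*, which encodes IKAROS, had 74.0 FPKM, *Rb1* 25.4 FPKM, *Gfi1b*, of the erythroid and megakaryocytic lineages, 23.9 FPKM, and *Gfi1*, of granulocytes, 15.9 FPKM. The *Runx1* partner genes of the ETO family differed, with 8.38 FPKM for *Cbfa2t3*, 2.29 FPKM for *Cbfa2t2* and 0.263 FPKM for *Runx1t1*.

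The partners of class IIa enzymes were read in the same way. Of the 4 *Mef2* genes, *Mef2d* had 25.2 FPKM (interval, 24.2 to 26.2), *Mef2a* 4.95 FPKM and *Mef2c* 3.93 FPKM, while *Mef2b* had 0.316 FPKM from 7 fragments. All 7 genes of the YWHA proteins, which hold phosphorylated class IIa enzymes in the cytoplasm, were detected at 1 FPKM or more. Their median was 79.5 FPKM, and levels ran from 9.03 FPKM for *Sfn* to 117 FPKM for *Ywhae*. Of 11 kinase genes that phosphorylate class IIa enzymes, 9 reached 1 FPKM, a level reached by 46.8% of all protein-coding genes. *Sik1* had 37.5 FPKM and *Prkd2* 16.7 FPKM, whereas *Camk4* had 0.123 FPKM and *Prkd1* is listed at 0. For HDAC6, the 10 partner and target genes ranged from 400 FPKM for *Hsp90ab1* to 1.37 FPKM for *Atat1*, the tubulin acetyltransferase. *Tuba1b*, an alpha-tubulin gene, had 357 FPKM, *Vcp* 61.0 FPKM and *Cttn*, which encodes the actin-binding HDAC6 target cortactin, 3.26 FPKM. Tubulin genes are near-identical to each other, so the split of fragments among them is uncertain.

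The opposing enzymes, the histone acetyltransferases, were all detected at 1 FPKM, a level reached by 46.8% of all protein-coding genes. The 10 genes had a median of 15.8 FPKM and a range of 1.23 to 25.8 FPKM, against a median of 11.3 FPKM and a range of 1.53 to 41.6 FPKM for the 10 HDAC genes. The order of these medians depended on how length was counted. Per kilobase of the longest coding transcript, the acetyltransferase median lay between *Kat2b* (15.6 FPKM) and *Kat6a* (16.9 FPKM). The HDAC median lay between *Hdac10* (15.0 FPKM) and *Hdac7* (18.9 FPKM), and was slightly the higher of these medians. *Hat1* was highest, followed by *Kat7* at 21.8 FPKM and *Kat5* at 19.8 FPKM, and *Kat6b* was lowest. Of the related coactivators, *Ep300* had 16.7 FPKM (interval, 16.2 to 17.2) and *Crebbp* 5.32 FPKM (interval, 5.02 to 5.64). Among the BET readers of acetylated histones, *Brd2* had 51.6 FPKM and *Brd3* 16.6 FPKM, and the testis gene *Brdt* had 0.161 FPKM. *Gadd45g*, the stress-response gene in which the study's MPN mice are deficient, had 19.3 FPKM in these Ctrl cells (interval, 17.4 to 21.4). Its interval overlapped that of *Hdac2*, and *Hdac1* was above it. Its relatives *Gadd45a* and *Gadd45b* had 78.8 and 15.6 FPKM. Over all 104 genes of these partner lists, 98 reached 1 FPKM, beside 46.8% of all protein-coding genes, and the median was 13.9 FPKM.

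**Figure D5:**
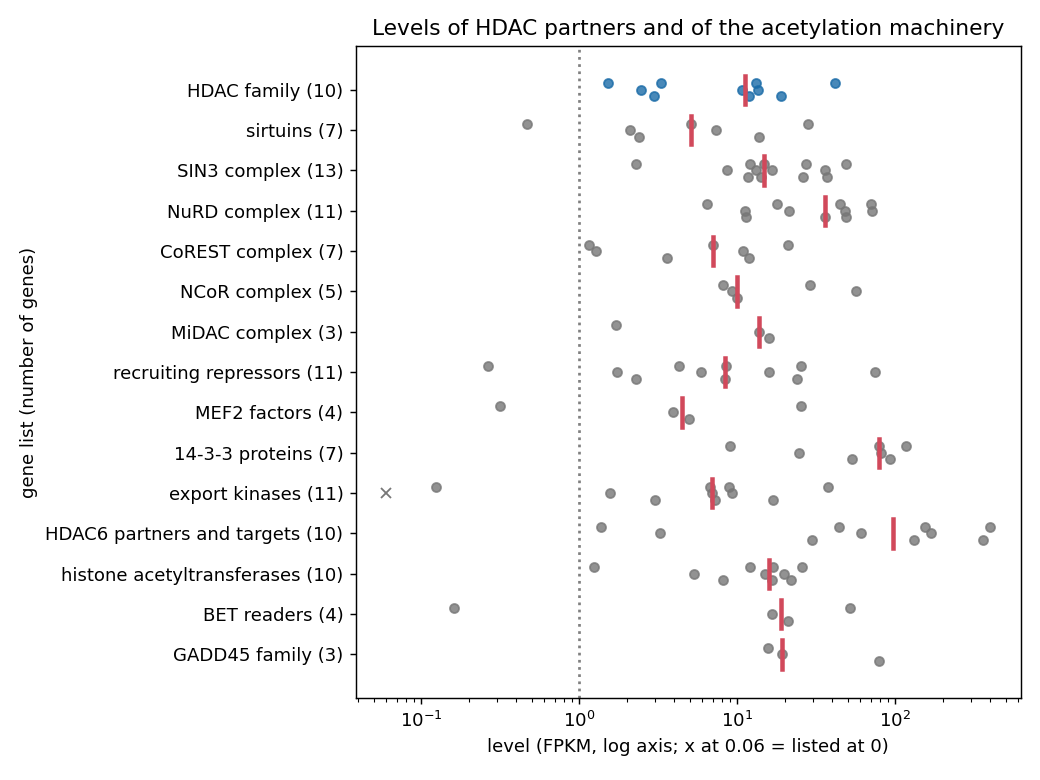
Level in FPKM (log axis) of each gene in the HDAC family (blue) and in the partner and pathway lists (grey), with the number of genes in parentheses. Red bars are medians, the dotted line is 1 FPKM, and the cross is *Prkd1*, listed at 0. The NuRD, YWHA (14-3-3) and HDAC6 partner lists have the highest medians, 36.0, 79.5 and 96.4 FPKM.

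These levels are sums over the sorted population. *Kit* had 7.17 FPKM, and the progenitor genes *Mpo* and *Elane* had 434 and 781 FPKM. Although the labels give a Lin- gate, markers of mature cells were present as well, with none of them at 0. All 9 neutrophil markers reached 1 FPKM, from *Cxcr2* at 109 FPKM to *S100a9* at 26677 FPKM, and so did all 7 erythroid markers, of which *Hba-a1* was highest at 25466 FPKM. That level of 1 FPKM was reached by 46.8% of all protein-coding genes. The 6 B cell markers ranged from 13.2 FPKM (*Vpreb1*) to 173 FPKM (*Cd79a*). The 5 macrophage markers ranged from 7.37 FPKM (*Mrc1*) to 51.5 FPKM (*Csf1r*) and the 5 T cell markers from 2.62 FPKM (*Cd3e*) to 8.55 FPKM (*Cd3d*). In a bulk library, fewer cells that express a gene and less RNA per cell cannot be told apart, and the part of these cells in the HDAC levels was not tested.

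Promoters of 7 of the 10 genes were in the RefSeq table of GRCm38.p6, each taken as 250 bases before to 50 bases after a start. These starts are not always the outer ends of the genes given above. The *Hdac8* window lies mostly inside the gene, which begins at chrX:102505359 on the reverse strand. The *Hdac4* window, chr1:92180292-92180591, lies wholly inside its gene, which begins at chr1:92195699 on the reverse strand. Those of *Hdac2* and *Hdac8* are shown because they had the most and the fewest CpG among the 6 genes with a single window, with CpG dinucleotides in capitals.
Hdac2 (chr10:36974294-36974593, forward strand): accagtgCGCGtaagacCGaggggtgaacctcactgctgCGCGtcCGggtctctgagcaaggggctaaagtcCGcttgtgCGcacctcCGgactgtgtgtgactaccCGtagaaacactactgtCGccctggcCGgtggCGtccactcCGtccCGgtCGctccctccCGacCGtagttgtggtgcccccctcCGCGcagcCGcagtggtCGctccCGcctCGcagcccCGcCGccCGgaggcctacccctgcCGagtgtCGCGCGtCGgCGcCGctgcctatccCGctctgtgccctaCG
Hdac8 (chrX:102505109-102505408, reverse strand): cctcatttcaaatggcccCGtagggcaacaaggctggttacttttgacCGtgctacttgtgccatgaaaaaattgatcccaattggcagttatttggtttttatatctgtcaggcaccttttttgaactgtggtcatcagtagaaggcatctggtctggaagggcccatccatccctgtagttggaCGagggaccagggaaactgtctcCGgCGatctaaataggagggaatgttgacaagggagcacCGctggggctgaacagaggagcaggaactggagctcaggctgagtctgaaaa
The *Hdac2* window held 36 CpG, more than 91.6% of the 20137 promoters of protein-coding genes, and the *Hdac8* window held 6, against a median of 14. Among the 6 genes with a single window, CpG number did not always rise with the level, since the *Hdac4* window held 32 CpG and that of *Hdac5* 18. *Hdac1*, *Hdac3* and *Hdac10* had no window, so the family as a whole could not be read. *Hdac7* had 4 windows, 1 per listed start, with 5, 31, 35 and 6 CpG. The letters GGGCGG, the GC box, were found on either strand in the windows of *Hdac2*, *Hdac4*, *Hdac5*, *Hdac6* and *Hdac11* and in 1 of the 4 windows of *Hdac7*, but not in that of *Hdac8*, and in 47.8% of all promoters. TATAAA was found in the *Hdac8* window alone among these, and in 12.1% of all promoters. CCAAT was found in the windows of *Hdac4*, *Hdac5*, *Hdac6*, *Hdac8* and *Hdac11*, and in 37.8% of all promoters. These are matches of letters on both strands and not sites shown to be bound.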

How the data were processed

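Total RNA was extracted with TRIzol from c-kit+ BM cells, and 1 library, Ctrl, was analysed. The authors deposited FPKM values, 1 per gene, made with HISAT2 2.0.5 and featureCounts 1.5.0-p3 on mm10 per the submitters' processing notes. The annotation and strandedness are not given in the sources used here. Symbols, lengths and coordinates came from GENCODE M21 (GRCm38, the assembly also called mm10), in which 54495 of 54532 identifiers were found. FPKM times exonic length was a whole multiple of a common step, within 0.01, for 96.4% of the 21313 genes above 0 and for 9 of the 10 HDAC genes. The share was 64.6% on chromosomes 17, 18 and 19, where *Hdac3* lies, and the cause was not tested. The multiples, 17113323 in all, were read as fragments. *Hdac3* was given its rounded multiple, 866, only where fragments were needed.

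A gene was called detected at 1 FPKM. Intervals are 95% Wilson intervals for a level and exact binomial intervals for a ratio. Medians and shares have intervals from counting error alone. Members, gene lists and settings were chosen with earlier results of these data known. All members were named, with the *Gadd45* genes, *Kit*, genes that overlap or copy a member, and of each list at least the highest and the lowest gene, apart from some that are not reported here. Similar loci were searched for with BLAST 2.17.0 (megablast). Proteins were translated from the longest coding sequence of each gene and aligned with Biopython 1.88 (BLOSUM62, gap penalties 11 and 1, free ends). The codon shown is that of the Gly-Gly-Tyr or Gly-Gly-His nearest to the position aligned with codon 303 of *Hdac1*, which was 8 residues away in *Hdac7* and at that position in the others. The computations ran in Python 3.11.15 with pandas 2.3.3, numpy 2.4.6 and scipy 1.17.1, and plots were drawn with matplotlib 3.10.9.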

Additional observations from a re-analysis of the deposited data

How the results depend on the processing

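No paired analysis was possible because only 1 library was analysed. Of 36 alternative values, 13 lay within the counting interval of the reported value (or, for counts of genes, within 1.5 times) and 23 did not. Part of the 23 follows from the settings themselves, so the tally does not measure stability. Levels in fragments have another unit than FPKM, and a shorter length or a smaller total raises every level. The ratio of the class I to the class II median was above 1 in all 8 of its alternatives. It was 1.76 per kilobase of the longest coding transcript, 1.36 against class IIa, 2.31 against class IIb, 2.28 for means, 1.26 without *Hdac1* and 2.31 without *Hdac5* or with *Hdac9* added, the last chosen after seeing the data. Not divided by length, the medians were 1096.5 fragments for class I and 744 for class II, class IV had 93, class I made up 49.2% of HDAC fragments, and *Hdac1* was 1.70 times *Hdac2*. Per kilobase of the longest coding transcript, these were 26.4, 15.0 and 2.22 FPKM, 64.8% and 2.72. Without *Hdac1* the class I share was 44.5%. Without the 10 most abundant genes in the total, every level rose by a factor of 1.09, which gave medians of 17.6 FPKM for class I and 11.7 FPKM for class II. Adding the fragments of loci similar to *Hdac1*, also chosen afterwards, gave a ratio of *Hdac1* to *Hdac2* of 2.37. At 10 FPKM, 6 HDAC genes and 62 of the 104 partner genes were detected, fewer by construction, beside 21.2% of all protein-coding genes. Depth limits *Hdac11*, with 93 fragments, most among the members.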
